A study of Mus musculus with 9 samples.

Results

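The 9 genes described here are the cation-chloride cotransporters Slc12a2 (NKCC1), Slc12a4 (KCC1), Slc12a5 (KCC2) and Slc12a7 (KCC4), the WNK kinases Wnk1, Wnk2 and Wnk3, and the kinases downstream of them, Stk39 (SPAK) and Oxsr1 (OSR1). They were picked by gene symbol, as transporters and kinases of chloride handling, and are 9 of the 14351 genes in the deposited table. Each had a value above 0 in every library.

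NKCC1 carries chloride into cells together with sodium and potassium, whereas the KCC proteins carry chloride out together with potassium. In neurons the balance between NKCC1 and KCC2 sets the chloride gradient, and so whether opening of GABA-A receptor channels inhibits the cell or depolarises it. WNK kinases sense chloride and cell volume, and they phosphorylate SPAK and OSR1, which in turn activate NKCC1 and inhibit the KCC proteins. Clic1 (chloride intracellular channel 1) occurs both as a soluble protein and as a membrane channel, and the comparison asks whether hypothalamic RNA of the chloride transporters and their kinases differs in mice that lack it.

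RNA was sequenced from the hypothalamus of male Clic1 KO mice and WT littermates fed normal chow, 1 library per mouse. The knockout is whole-body, so it is present throughout life and in all cells of the dissected tissue. The labels name the strain C57b/6J and mention frozen perigonadal fat as the starting material, whereas the methods of the study describe a CD-1 background and hypothalamus. The labels give no age. Libraries analysed were KO replicates 2, 4, 6, 8 and 10 and WT replicates 1, 3, 9 and 11. Replicate 10 has conflicting labels, since its description begins with K like the other KO libraries and its title and treatment say WT. It was placed with the KO mice, and values without it are given beside the results.

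Low CPM values fell on steps that gave approximate totals of 5.47 to 7.71 M reads in KO replicates 2 to 8, 7.28 to 10.98 M in WT libraries and 20.8 M in KO replicate 10. CPM of Clic1 spanned 0.733 to 1.93 in the KO group and 3.58 to 5.52 in the WT group, and replicate 10, at 1.43 CPM, lay inside the KO span. Replicate 10 stood apart from the rest. For 58.5% of genes it was higher or lower than all 8 others, against 11.4% to 21.8% for each other library. Marker genes of neurons, astrocytes and oligodendrocytes were all measured. Neuronal markers summed to between 3174 and 3420 CPM in the KO group and between 3181 and 3731 CPM in the WT group. All 8 hypothalamic markers had values, at mean levels between 1.81 and 245 CPM. Their sums did not overlap, at between 596 and 770.1 CPM in the KO group and between 526 and 572 CPM in the WT group. Replicate 10 had the highest of these sums, so they overlap if it is counted as WT. On the log2 scale 4 of the 8 were higher in KO mice and 4 lower, with a median difference of 0.04. Avp, the vasopressin gene, rose in KO mice (log2 difference 0.90, adjusted p = 0.0027 from limma). It averaged 207 CPM in the KO group and 111 CPM in the WT group. The 5 adipose markers were not analysed here.

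None of the 9 genes differed between Clic1 KO and WT mice after adjustment over all genes. In limma on log2(CPM + 0.1), 0 of 9 had a Benjamini-Hochberg adjusted p under 0.05, as did 0.286% of all genes, and 0 of 9 had an unadjusted p under 0.05, against 6.5% of all genes. Limma-voom on approximate reads also called 0 of 9. Adjusted p-values in limma lay between 0.767 and 0.996. The log2 differences (KO minus WT) ran from -0.10 for Wnk1 to 0.18 for Stk39, with 4 genes higher, 5 lower and a median of -0.01. The median over all genes was 0.00089. Without KO replicate 10 the tally turned to 5 higher and 4 lower with a median of 0.01, and with replicate 10 as WT to 6 higher and 3 lower with a median of 0.05. The 95% intervals of all 9 genes lay between -0.40 and 0.39 on the log2 scale in this fit. In whole tissue, fewer cells of a type and less RNA per cell cannot be told apart.

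**Figure D1:**
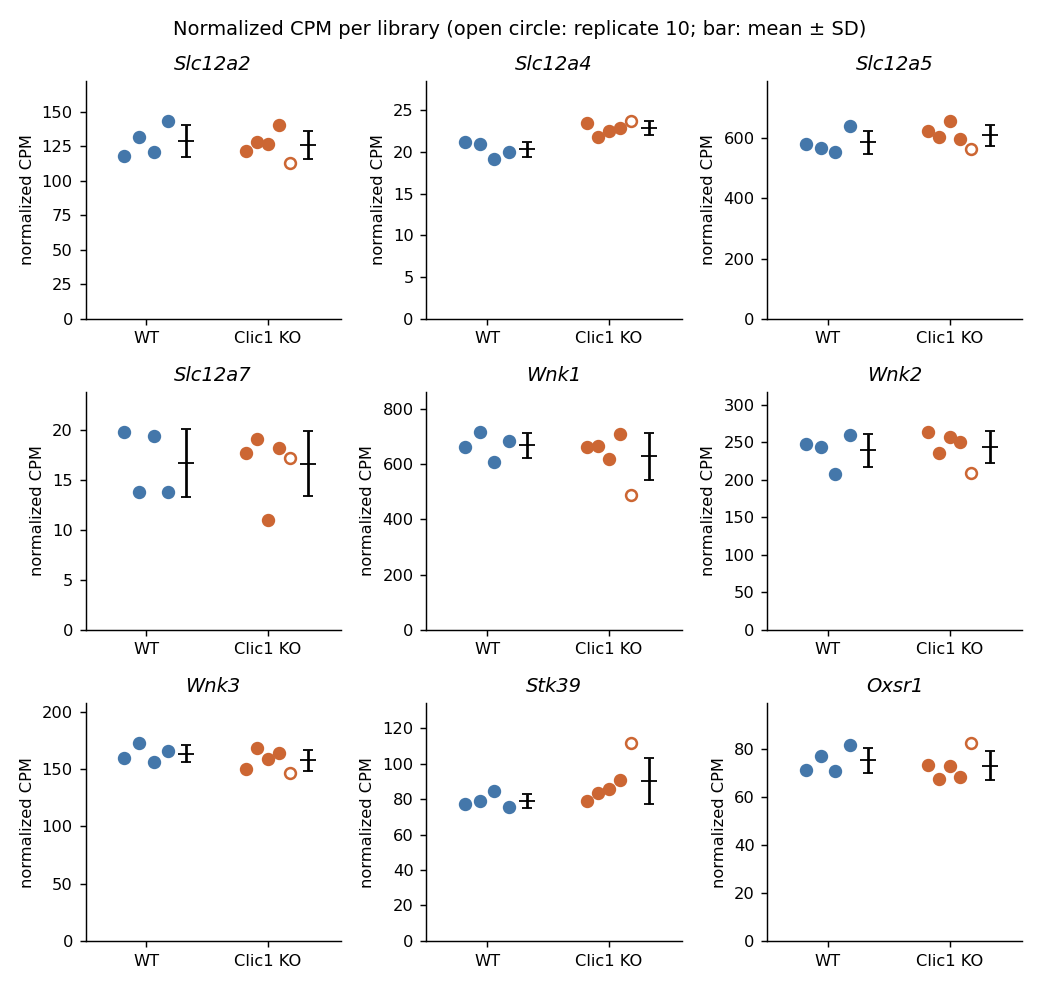
Normalized CPM of the 9 genes in each library (y axis, from 0), for WT and Clic1 KO mice. Each circle is 1 mouse, the open circle is replicate 10, and the bar beside each group is the mean ± SD (n = 4 WT, n = 5 KO). The groups overlap in 8 of the 9 genes, and in Slc12a4 the KO libraries, at 21.7 to 23.7 CPM, sit above the WT libraries, at 19.1 to 21.2 CPM.

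Slc12a2 (ENSMUSG00000024597) encodes NKCC1, the chloride loader, and spans 57878678 to 57946821 on chromosome 18 (GRCm38, plus strand). KO replicates 2, 4, 6, 8 and 10 held 122, 128, 127, 140 and 113 CPM, in that order, and WT replicates 1, 3, 9 and 11 held 118, 132, 121 and 144 CPM. KO replicate 10 was the lowest and WT replicate 11 the highest, and the groups overlapped over nearly their whole range. KO mice averaged 126 ± 10.1 CPM (SD, n = 5) and WT mice 128 ± 11.7 CPM (SD, n = 4). This was a log2 difference of -0.03 (standard error 0.08, adjusted p = 0.959 from limma), and the exact permutation test gave p = 0.73. Its 95% interval corresponds to a KO level of 0.868 to 1.11 times the WT level. Without KO replicate 10 the difference was 0.01 on the log2 scale, with an interval of 0.914 to 1.11 times.

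Slc12a5 (ENSMUSG00000017740), which spans 164960802 to 164999731 on chromosome 2 (plus strand), encodes KCC2, the neuronal chloride extruder. KO libraries held 623, 605, 659, 599 and 565 CPM in the order above, and WT libraries 582, 569, 556 and 642 CPM. The highest library was KO replicate 6 and the lowest WT replicate 9, and WT replicate 11 lay among the highest KO values. Group means were 610 ± 34.4 CPM (SD, n = 5) and 587 ± 37.8 CPM (SD, n = 4). The log2 difference of 0.06 (standard error 0.06, adjusted p = 0.891 from limma) was within the spread between mice, and the exact permutation test gave p = 0.365. The interval allows a KO level from 0.943 to 1.15 times the WT level. Without KO replicate 10 the log2 difference was 0.08 and the interval 0.983 to 1.14 times.

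The ratio of Slc12a5 to Slc12a2 describes extruder RNA relative to loader RNA within a library. On the CPM scale, not corrected for gene length, it was 5.13, 4.73, 5.19, 4.27 and 5.02 in the KO libraries and 4.95, 4.32, 4.59 and 4.47 in the WT libraries. KO replicate 8 had the lowest ratio of all libraries and KO replicate 6 the highest, so the WT range lay inside the KO range. Its average was 4.87 ± 0.378 (SD, n = 5) for KO mice, 4.83 ± 0.425 (SD, n = 4) for KO mice without replicate 10, and 4.58 ± 0.266 (SD, n = 4) for WT mice. No test was run on this ratio.

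Slc12a4 (ENSMUSG00000017765) encodes KCC1, a cotransporter found in most cell types that takes part in volume regulation, and spans 105943590 to 105966097 on chromosome 8 (minus strand). Its CPM was 23.4, 21.7, 22.5, 22.8 and 23.7 in the KO libraries and 21.2, 20.9, 19.1 and 20.0 in the WT libraries. Each KO library was above each WT library. The means were 22.9 ± 0.784 CPM (SD, n = 5) and 20.3 ± 0.947 CPM (SD, n = 4). The log2 difference was 0.17 (standard error 0.08) with a 95% interval from -0.0018 to 0.34, an unadjusted p of 0.052 and an adjusted p of 0.767 in limma. The exact permutation test gave p = 0.0159, the smallest that 5 against 4 libraries allow. Of the 9 genes, 1 showed no overlap between groups, against 3.41% of all genes in either direction and 1.67% with KO higher. Leaving out KO replicate 10 gave a log2 difference of 0.16 (adjusted p = 0.538 from limma). The groups still did not overlap then, as in 6.06% of all genes in either direction and 2.86% with KO higher. With replicate 10 counted as WT, the difference was 0.11 and 0 of 9 genes were without overlap, against 3.07% of all genes.

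Endothelial marker sums were also separate between the groups, and this list was picked by its values because it moved with Slc12a4. Other lists differed. Microglial markers had 0 higher and 5 lower, and neuronal and oligodendrocyte markers 1 higher and 5 lower each. Astrocyte markers had 2 higher and 4 lower, and those of oligodendrocyte precursors 1 and 3. Choroid plexus markers had 2 higher and 1 lower, and ependymal markers 3 and 1. All 5 endothelial markers together summed to between 174 and 195 CPM in KO libraries, against 158 to 166 CPM in WT libraries. The highest sum was that of replicate 10, and the other KO libraries reached 191 CPM. With replicate 10 counted as WT the endothelial sums therefore overlap. In limma 5 of 5 had a higher KO mean on the log2 scale, 0 passed an adjusted p of 0.05, against 0.286% of all genes, and 1 had an unadjusted p under 0.05, against 3.44% of all genes in that direction. Their part in the Slc12a4 values, and that of the hypothalamic markers given above, was not tested. An annotated antisense gene, Gm16156, covers 361 bp, or 8.44%, of the Slc12a4 exons, and whether the counting used strand is not given in the sources used here.

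Slc12a7 (ENSMUSG00000017756) encodes KCC4, another potassium-chloride exporter, and spans 73733094 to 73816754 on chromosome 13 (plus strand). It was the least abundant of the 9 genes, with 17.6, 19.1, 10.99, 18.1 and 17.2 CPM in KO and 19.8, 13.8, 19.4 and 13.8 CPM in WT libraries. KO replicate 6 was the lowest library, and the WT libraries fell into a higher and a lower pair. The values rest on about 60.0 reads in KO replicate 6 and at most 348 reads in any other library. KO minus WT was -0.01 on the log2 scale (standard error 0.18, adjusted p = 0.996 from limma), and the interval of 0.759 to 1.3 times the WT level was the widest among the 9 genes. Leaving out KO replicate 6 turned it to 0.13 (adjusted p = 0.85 from limma).

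**Figure D2:**
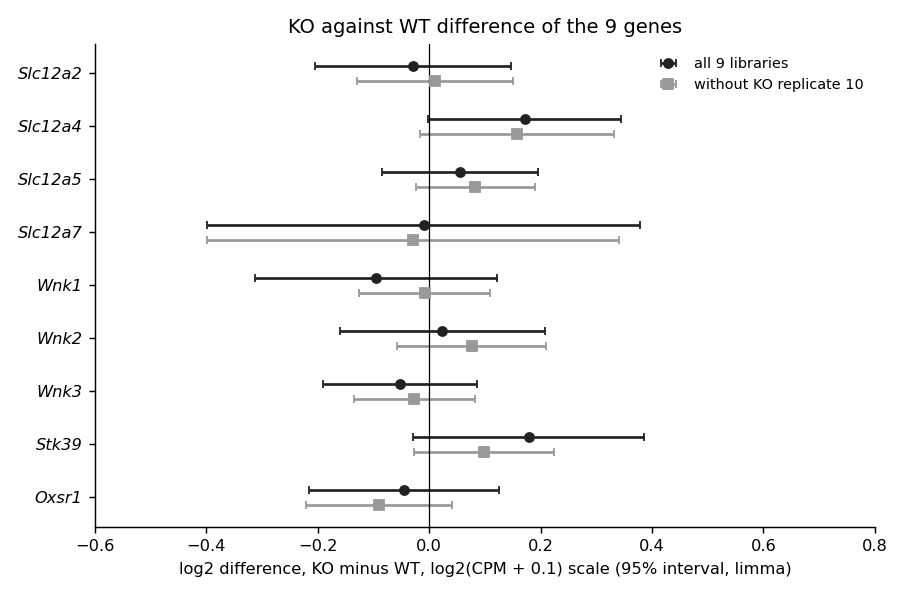
Log2 difference (x axis, KO minus WT on the log2(CPM + 0.1) scale) of the 9 genes, with 95% intervals from limma. Black circles use all 9 libraries and grey squares leave out KO replicate 10. Each interval includes 0, and Slc12a7 has the widest, from -0.40 to 0.38.

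The WNK kinases carry their name from the lysine that is absent from its usual place in the kinase domain. Wnk1 (ENSMUSG00000045962), the broadly expressed member, spans 119923969 to 120038672 on chromosome 6 (minus strand). It was at 662, 664, 618, 709 and 488 CPM in KO and 661, 717, 606 and 685 CPM in WT libraries. KO replicate 10 was by itself at the low end, and the other KO libraries fell within the WT range. The log2 difference of -0.10 (standard error 0.10, adjusted p = 0.88 from limma) had an interval of 0.805 to 1.09 times, and the exact permutation test gave p = 0.508. It was -0.0076 (adjusted p = 0.98 from limma) when KO replicate 10 was left out, with an interval of 0.917 to 1.08 times. The KO mean was 628 ± 84.6 CPM (SD, n = 5) with replicate 10 and 663 ± 37.3 CPM (SD, n = 4) without it, and the WT mean was 667 ± 46.5 CPM (SD, n = 4). Gene-level values do not separate the transcript forms of Wnk1.

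Wnk2 (ENSMUSG00000037989), a WNK kinase prominent in brain, spans 49036303 to 49148014 on chromosome 13 (minus strand). Its values were 264, 235, 257, 250.0 and 209 CPM in KO libraries and 247, 243, 208 and 259 CPM in WT libraries. WT replicate 9 and KO replicate 10 were the lowest, and the other 7 libraries lay close together, from 235 to 264 CPM. Groups differed by 0.02 on the log2 scale (standard error 0.08, adjusted p = 0.971 from limma), with an interval of 0.895 to 1.15 times, and by 0.08 (adjusted p = 0.737 from limma) without KO replicate 10.

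Wnk3 (ENSMUSG00000041245), a WNK kinase expressed in neurons, spans 151198078 to 151320152 on chromosome X (plus strand). KO libraries held 151, 169, 159, 164 and 147 CPM and WT libraries 160, 173, 156 and 166 CPM. KO replicate 10 was the lowest and WT replicate 3 the highest. KO mice were at a log2 difference of -0.05 from WT mice (standard error 0.06, adjusted p = 0.897 from limma), and the interval was 0.876 to 1.06 times. Leaving out KO replicate 10 gave -0.03 (adjusted p = 0.914 from limma). An annotated antisense gene, A230072E10Rik, covers 523 bp, or 4.94%, of the Wnk3 exons.

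SPAK and OSR1 are the related kinases that WNKs activate. Stk39 (ENSMUSG00000027030), which encodes SPAK, lies on the minus strand of chromosome 2 from 68210445 to 68472268, and Oxsr1 (ENSMUSG00000036737), which encodes OSR1, on the minus strand of chromosome 9 from 119238432 to 119322427. RefSeq promoters were found for 8 of the 9 genes. Those of this kinase pair, from 250 bases before to 50 bases after the gene start that RefSeq gives, are printed because both genes were highest in the same library, KO replicate 10. This trait is not particular to the pair. Slc12a4 was also highest in that library, which was outside the range of the other 8 for 58.5% of all genes. Both promoters are on the minus strand of GRCm38.p6, at chr2:68471932-68472231 for Stk39 and chr9:119322378-119322677 for Oxsr1, written 5′ to 3′ with GC boxes (GGGCGG or CCGCCC) in capitals. The RefSeq start of Stk39 is downstream of the GENCODE start given above, so its window falls inside the GENCODE span of the gene.
Stk39: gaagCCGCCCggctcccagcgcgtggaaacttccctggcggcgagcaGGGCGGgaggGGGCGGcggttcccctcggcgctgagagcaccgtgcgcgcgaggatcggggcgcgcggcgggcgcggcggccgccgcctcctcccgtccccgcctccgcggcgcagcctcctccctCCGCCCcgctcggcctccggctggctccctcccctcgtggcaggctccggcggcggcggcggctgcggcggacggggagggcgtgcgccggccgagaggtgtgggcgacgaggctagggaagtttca
Oxsr1: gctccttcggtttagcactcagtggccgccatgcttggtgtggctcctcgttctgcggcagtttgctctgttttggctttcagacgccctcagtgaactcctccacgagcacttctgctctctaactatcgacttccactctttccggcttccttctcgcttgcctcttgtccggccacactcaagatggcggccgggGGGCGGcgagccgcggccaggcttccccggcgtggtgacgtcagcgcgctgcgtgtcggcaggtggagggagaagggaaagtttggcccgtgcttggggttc
GC boxes number 4 in the Stk39 and 1 in the Oxsr1 promoter, and 35.7% of the 32851 RefSeq promoters of 300 bases hold at least 1 on either strand. The Stk39 window has 49 CpG dinucleotides, more than 99.0% of promoters, and the Oxsr1 window 24, more than 80.02%. Neither window holds the letters TATAAA, present on either strand in 13.6% of promoters, or CCAAT, present in 37.4%.

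Stk39 was at 78.9, 83.6, 85.5, 91.0 and 112 CPM in KO and 77.2, 78.95, 84.7 and 75.6 CPM in WT libraries. KO replicate 10 was the highest by a wide margin, and the other KO libraries lay partly inside and partly just above the WT range. The means were 90.1 ± 12.8 CPM (SD, n = 5) and 79.1 ± 3.95 CPM (SD, n = 4). The log2 difference of 0.18 (standard error 0.10, adjusted p = 0.801 from limma) had an interval of 0.98 to 1.31 times, and the exact permutation test gave p = 0.0794. When KO replicate 10 was left out, the KO mean was 84.8 ± 4.998 CPM (SD, n = 4) and the log2 difference 0.10 (adjusted p = 0.605 from limma). With replicate 10 counted as WT the difference was -0.00099.

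Oxsr1 was at 73.4, 67.5, 73.1, 68.3 and 82.5 CPM in KO and 71.1, 77.1, 70.9 and 81.8 CPM in WT libraries. KO replicate 10 was again the highest, closely followed by WT replicate 11. KO mice were at a log2 difference of -0.05 (standard error 0.08, adjusted p = 0.932 from limma) and an interval of 0.861 to 1.09 times. Leaving out KO replicate 10 gave -0.09 (adjusted p = 0.664 from limma).

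**Figure D3:**
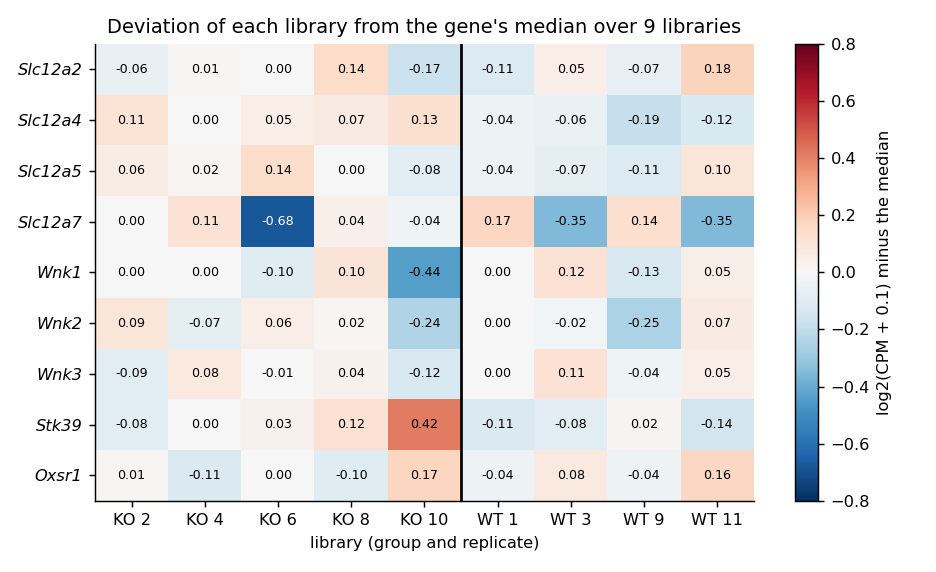
Deviation of each library (columns, KO replicates left of the line and WT right) from the median of each gene (rows) over the 9 libraries, as log2(CPM + 0.1). Red is above and blue below the median. Replicate 10 has -0.44 for Wnk1 and 0.42 for Stk39, and KO replicate 6 has -0.68 for Slc12a7.

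Replicate 10 lay below the other 8 libraries for Slc12a2, Wnk1 and Wnk3 and above them for Slc12a4, Stk39 and Oxsr1. It was thus outside their range for 6 of the 9 genes, near the 58.5% of all genes and the 72.5% of genes that averaged 50 CPM or more. Against the mean of the other KO libraries, its log2 values differed by -0.44 for Wnk1, -0.26 for Wnk2 and -0.13 for Wnk3, and by 0.40 for Stk39 and 0.23 for Oxsr1. Each other library lay outside the range of the rest for 0 to 3 of the 9 genes. Within WT mice the coefficient of variation of the genes ranged from 4.54% for Wnk3 to 20.2% for Slc12a7, with a median of 6.98%, against a median of 8.57% over all genes.

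Levels of different genes were compared per kilobase of merged exon length, over all 9 libraries. Slc12a5 had the highest level, at 80.6 ± 4.80 CPM per kb (SD, n = 9), and did not overlap any other of these genes. Wnk2, at 28.5 ± 2.42, and Wnk1, at 28.3 ± 3.04 CPM per kb, were not separable, with Wnk2 above Wnk1 in 5 of 9 libraries. Stk39, at 17.2 ± 2.22, Wnk3, at 15.2 ± 0.802, Oxsr1, at 13.8 ± 1.02, and Slc12a2, at 11.6 ± 0.934 CPM per kb, followed with ranges that overlapped between neighbours, although the higher gene of each pair was above in 7 or 8 of 9 libraries. Slc12a4, at 5.08 ± 0.367, and Slc12a7, at 1.31 ± 0.243 CPM per kb, were lowest and did not overlap their neighbours. With the length of the longest coding transcript in place of merged exons, Slc12a5 stayed first at 99.5 CPM per kb and Slc12a4 and Slc12a7 last, whereas Wnk1, at 57.0, moved above Wnk2, at 35.0, and Slc12a2, at 19.5, moved above Wnk3, at 18.8, and Oxsr1, at 15.9 CPM per kb.

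**Figure D4:**
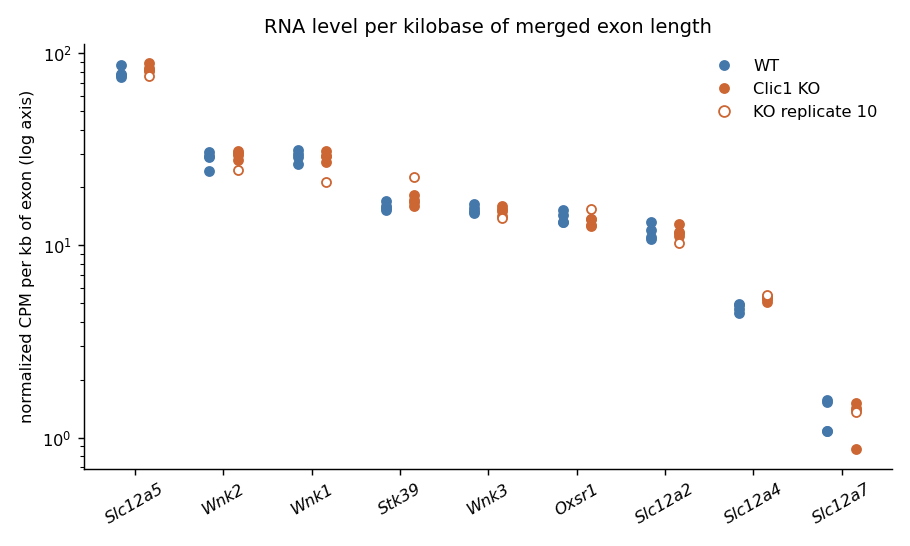
Normalized CPM per kilobase of merged exon length (y axis, log scale) of the 9 genes, ordered by their mean over all libraries. Each circle is 1 library, blue for WT and orange for Clic1 KO, and the open circle is KO replicate 10. Slc12a5 lies at 74.6 to 88.5 CPM per kb and Slc12a7 at 0.867 to 1.56.

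Among 12071 other genes that averaged 5 CPM or more, those whose log2 values over the 9 libraries followed Slc12a2 most closely were Ypel2 (Pearson r = 0.97), Ano3 (0.92) and Cdk7 (0.92). For Slc12a5 they were Atp8b2 (r = 0.93), Carmil3 (0.92) and Dazap1 (0.92). These are the highest of many correlations over few libraries, which share differences in depth and composition, and they are given as a description. Without replicate 10 they were 0.96, 0.89 and 0.96 for Slc12a2 and 0.93, 0.93 and 0.95 for Slc12a5.

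Related genes in 5 lists were followed in the same fit, and all 35 listed genes were measured. None of the 35 passed an adjusted p of 0.05 in limma, against 0.286% of all genes. An unadjusted p under 0.05 was found for 3, all higher in KO mice, against 3.44% of all genes higher and 6.5% in either direction. KO and WT libraries overlapped in all 35, and 3.41% of all genes were without overlap. Among the other SLC12 genes, 3 were higher and 2 lower, with a median log2 difference of 0.03, and 5 were higher and 0 lower, with a median of 0.11, when KO replicate 10 was left out. The kidney transporter genes Slc12a1 (NKCC2) and Slc12a3 (NCC) and the distant relative Slc12a8 were all at or under 2.45 CPM in every library, and the smallest unadjusted p in this list were 0.52 for Slc12a1 and 0.603 for Slc12a8 in limma.

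WNK and SPAK regulators had 6 genes higher and 2 lower, with a median log2 difference of 0.0086, or 5 higher and 3 lower with a median of 0.02 when KO replicate 10 was left out. Wnk4, a WNK kinase best known from kidney, was at 5.28, 4.61, 3.11, 7.51 and 2.87 CPM in KO and 2.08, 2.80, 3.30 and 2.62 CPM in WT libraries. KO replicates 6 and 10 lay within the WT range and the other KO libraries above it. KO minus WT was 0.70 on the log2 scale (standard error 0.28, unadjusted p = 0.0254, adjusted p = 0.698 from limma), and 0.85 (adjusted p = 0.208 from limma) without KO replicate 10. Klhl3, the adaptor that brings WNKs to the Cul3 ubiquitin ligase, had the next smallest p, with a log2 difference of 0.09 (unadjusted p = 0.453 in limma), and 0.15 without KO replicate 10. Cul3 itself had a log2 difference of 0.0038, and Cab39, which encodes the SPAK and OSR1 activator MO25, of 0.01. These were 0.02 and -0.06 without KO replicate 10.

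KCC2 partners and regulators had 3 genes higher and 5 lower, with a median of -0.05, or 4 higher and 4 lower with a median of -0.0080 when KO replicate 10 was left out. The neurotrophin gene Bdnf, which averaged 20.9 ± 3.95 CPM (SD, n = 5) for KO and 24.3 ± 1.004 CPM (SD, n = 4) for WT mice, had a log2 difference of -0.23 (unadjusted p = 0.0904, adjusted p = 0.803 from limma). Without KO replicate 10, which had the highest Bdnf of all libraries at 26.8 CPM, it was -0.33 (unadjusted p = 0.00449, adjusted p = 0.204 from limma). The gene of its receptor, Ntrk2, had a log2 difference of -0.09 (adjusted p = 0.857 from limma), which was -0.04 without KO replicate 10 and 0.01 with it as WT.

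Sodium pump subunits, which maintain the cation gradients that the cotransporters use, had 3 genes higher and 3 lower, with a median of 0.02, or 4 higher and 2 lower with a median of 0.04 when KO replicate 10 was left out. Atp1b2, a regulatory subunit of the pump, had a log2 difference of -0.13 (adjusted p = 0.9 from limma) with replicate 10 and 0.04 without it.

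Bicarbonate transporters and carbonic anhydrases had 3 genes higher and 5 lower, with a median of -0.05, which was -0.03 when KO replicate 10 was left out. Slc4a3, which encodes the chloride-bicarbonate exchanger AE3, was at 140, 123, 134, 127 and 134 CPM in KO and 111, 105, 108 and 127 CPM in WT libraries. WT replicate 11 reached into the KO range, and the other WT libraries lay below it. The log2 difference was 0.23 (standard error 0.07, unadjusted p = 0.00754, adjusted p = 0.506 from limma), with a two-sided exact permutation p of 0.0476, and it was 0.22 (adjusted p = 0.183 from limma) without KO replicate 10. Slc4a4, the sodium bicarbonate cotransporter gene, had a log2 difference of -0.14 (unadjusted p = 0.0667 in limma), and -0.09 without KO replicate 10. Leaving out KO replicate 10 left 6 of the 35 genes with an unadjusted p under 0.05, against 10.5% of all genes, and 0 of the 35 past the adjusted threshold, against 0.606% of all genes.

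**Figure D5:**
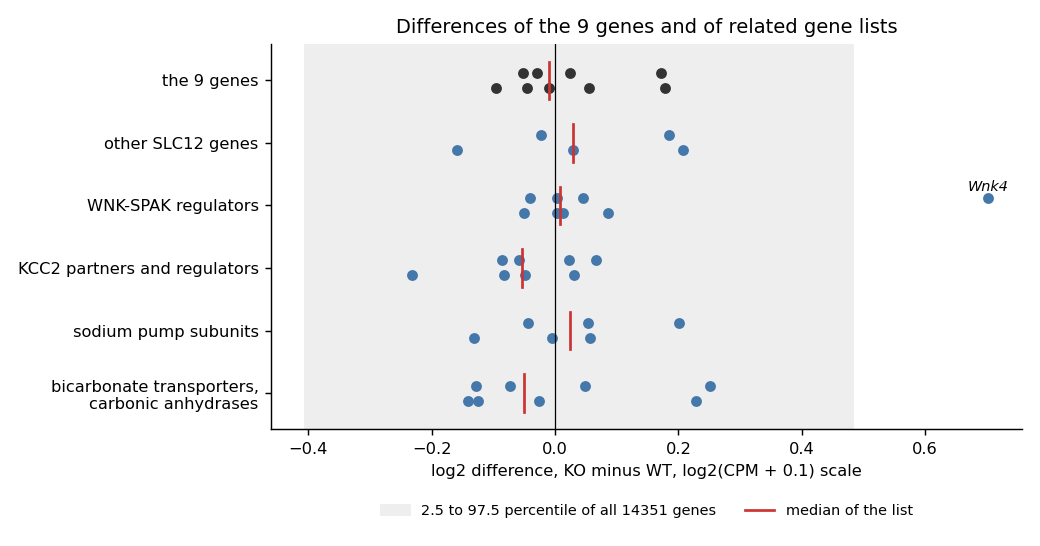
Log2 difference (x axis, KO minus WT on the log2(CPM + 0.1) scale) of each of the 9 genes and of the genes in 5 related lists (rows). Each dot is 1 gene, the red line is the median of the list, and the grey band spans the 2.5 to 97.5 percentile of all genes, -0.40 to 0.48. Wnk4, at 0.70, is the single dot outside the band.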

How the data were processed

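The labels name FastQC 0.11.8, Trimmomatic 0.38, STAR 2.5.1a, RSEM 1.3.0 and limma among the submitters' processing tools, with GRCm38.p6 as the build. The authors removed genes with low CPM, applied TMM scaling and deposited a signal of normalized CPM per library. They also deposited a table of their own comparison, with fold changes and p-values, of which only gene symbols were used. There was 1 column of values that matched no sample and was not used, and its name starts with W like those of the WT libraries.

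Here log2(CPM + 0.1) was fitted with limma 3.58.1 in R 4.3.3 (intensity trend, condition as the term, Benjamini-Hochberg adjustment over 14351 genes). The fit was checked on simulated data in which the noise of a gene had the same spread in every library. That check does not cover a library that stands apart, as replicate 10 did. Two-sided exact permutation tests used scipy 1.17.1. Voom on counts was not the main fit because reads could only be approximated: 81.0% to 86.5% of values under 2.5 CPM were within 0.03 reads of a whole read. The genes and lists were chosen with earlier results of these data known. Genes named were the 9, Clic1, the 2 with the smallest p in each list, and the 3 most alike in pattern; others were named after their values were seen, and some list genes are counted but not reported here by name. Positions and exon lengths came from GENCODE M21. Replicates are separate mice, and low genes have the least precise values.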

Additional observations from a re-analysis of the deposited data

Results flagged for a closer look

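Of 42 groups of values tested for a sample far from the others, 2 had one, against 2.1 expected by chance. These groups did not take in all of the 35 listed genes, so the count does not describe the lists. Ckb, among the KCC2 partners, was not flagged, yet it was 1049 CPM in KO replicate 10. The other KO libraries held 595 to 612 CPM of Ckb. Replicate 10 was outside the range of the other 8 libraries for 58.5% of all genes. Slc12a7 was 10.99 CPM in KO replicate 6, and the other KO libraries lay between 17.2 and 19.1 CPM. Atp1b2, the sodium pump subunit, was 496 CPM in KO replicate 10, and the other KO libraries lay between 841 and 964 CPM.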

How the results depend on the processing

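Over 18 alternatives each, 149 of 162 values of the 9 genes kept their sign, 13 changed it, and none passed an adjusted p of 0.05, the smallest being 0.444 in limma. With replicate 10 as WT, the log2 difference turned to 0.047 for Slc12a2, 0.082 for Wnk1, 0.0046 for Wnk3 and -0.00099 for Stk39. It turned to 0.022 for Slc12a2 with array weights and to 0.0034 for Slc12a7 with limma-voom. As each library was left out, Slc12a2 ranged from -0.070 to 0.026, Slc12a7 from -0.094 to 0.13 and Wnk2 from -0.043 to 0.076. Slc12a2 turned without KO replicate 10 or WT replicate 11, Slc12a7 without KO replicate 6 or WT replicates 1 or 9, and Wnk2 without KO replicate 2 or WT replicate 9. The cause of these changes was not tested.

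Over all genes, the 41 past the threshold became 27 with a mean of at least 5 CPM, 135 with array weights, 5 with replicate 10 as WT, and 18 to 87 as each library was left out, 87 without KO replicate 10. Clic1 kept its direction and missed the threshold with replicate 10 as WT (-1.51, adjusted p = 0.501 from limma) and without WT replicate 1, 3 or 9 (adjusted p of 0.0702 to 0.0893). The genes without overlap fell from 1 to 0 of 9 with replicate 10 as WT, against 3.41% and 3.07% of all genes. This count, the coding transcript lengths and the list counts that follow were chosen as alternatives after seeing the data. Without KO replicate 10, genes with an unadjusted p under 0.05 rose from 0 to 2 among KCC2 partners and from 1 to 2 among pump subunits. The share over all genes also rose, from 6.5% to 10.5%. No paired analysis was run, because the sample labels used here and the methods of the study match no KO mouse to a WT mouse.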
